A study of Mus musculus with 21 samples.

Results

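Nmnat3 and 8 other genes of NAD synthesis (Nmnat1, Nmnat2, Nampt, Naprt, Nadsyn1, Nmrk1, Qprt and Nadk) were followed across whole testes of C57BL6 mice that lacked Mageb4 or were wild type. The genes were taken by symbol from a table of 55573 entries, in which each of the 9 stood once. They were selected on the unheated TPM values, in which Nmnat3 stood lower in the knockout, so the genotype comparison without heat is given for them as a description, with no test. Poly(A) RNA was sequenced from 21 testes. They were 5 Mageb4 knockout and 4 wild-type testes taken 72 h after heat shock, and 6 knockout and 6 wild-type testes taken with no heat shock. The sources used here do not give the ages of the mice, the knockout allele, or how hot and how long the heat shock was. The study asked how loss of Mageb4, a MAGE family gene on the X chromosome, affects the testis transcriptome with and without heat. Values are TPM, a transcript abundance. They are scaled to transcript length and to a fixed total per library, so the read depth behind each value is unknown.

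NAD is the electron carrier of glycolysis and respiration and the substrate of sirtuins and poly(ADP-ribose) polymerases, which split it and release nicotinamide. Cells rebuild it from nicotinamide through Nampt, from nicotinic acid through Naprt, from nicotinamide riboside through Nmrk1, and from tryptophan by a route that ends with Qprt. All these routes meet at the NMNAT enzymes, adenylyl transferases that join the mononucleotide to an adenylate group. Nmnat1 is nuclear, Nmnat2 is cytosolic and Golgi-bound and best known from axons, and Nmnat3 has been placed in mitochondria. Nadsyn1 then amidates the product of the nicotinic acid and tryptophan routes, and Nadk phosphorylates NAD to NADP.

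Mageb4 itself stood at 0.09 to 0.15 TPM in heated knockout and 7.82 to 8.26 TPM in heated wild type, and at 0.01 to 0.11 TPM in unheated knockout and 1.53 to 1.99 TPM in unheated wild type. These ranges did not overlap between genotypes. All 8 listed Sertoli cell markers and all 8 round spermatid markers were measured, and none was at 0 throughout a group. The summed Sertoli markers lay at 3987 to 5801 TPM in heated knockout, 8776 to 10954 TPM in heated wild type, 1382 to 1861 TPM in unheated knockout and 1093 to 1252 TPM in unheated wild type. For round spermatids the sums were 698 to 989, 538 to 641, 1773 to 1878 and 1772 to 1863 TPM in the same groups. The 8 pachytene spermatocyte markers summed to 3671 to 4597, 1989 to 2598, 5849 to 6543 and 5878 to 6855 TPM in these groups. As single genes they were split, with 4 called higher and 4 lower after heat in wild type (limma adjusted p under 0.05). With heat in the knockout 3 were called higher and 4 lower. Between genotypes after heat, 4 were called higher and 3 lower in the knockout. The 8 elongating spermatid markers summed to 66655 to 83559 TPM in heated knockout and 27788 to 38010 TPM in heated wild type. The unheated sums were 42081 to 48905 TPM in knockout and 40037 to 50466 TPM in wild type. The heated knockout sum thus lay above and the heated wild-type sum below the unheated sums. Singly, all 8 were called higher after heat in the knockout, but 4 higher and 3 lower in wild type. Between genotypes after heat, 6 were called higher and 0 lower in the knockout. Of the Sertoli markers, 8 were called higher and 0 lower with heat in each genotype. In heated knockout against heated wild type, 0 of them were called higher and 7 lower. Round spermatid markers were called higher for 1 and lower for 7 with heat in each genotype. In heated knockout against heated wild type, 7 of these were called higher and 1 lower. Of all genes, 41.3% were called higher and 41.5% lower with heat in the knockout, and 47.0% and 44.6% in wild type. Between genotypes after heat these shares were 34.4% and 49.0%. The marker sums therefore moved with both heat and genotype, and their part in the results below was not tested. In whole tissue, fewer cells of a type and less RNA per cell cannot be told apart. Heated wild-type replicate 3 held 2126 TPM of the epididymal gene Crisp1. Leaving this library out changed no call among the tested members. A median-of-ratios scaling shifted the log2 heat effect by -0.08 in the knockout and by -0.24 in wild type, and the genotype difference after heat by 0.12, so differences of that size depend on the scaling.

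Nmnat3 (ENSMUSG00000032456.13) lies on chromosome 9 at 98287435 to 98420438 of mm10, on the plus strand, and is protein-coding. Its promoter is shown with those of Nampt, a member that rose after heat, and Nmnat1, a member that fell. Each window runs from 250 bases before to 50 bases after a RefSeq start on GRCm38.p6, written 5′ to 3′ on the gene's strand, with GC boxes (GGGCGG on either strand) in capitals.
Nmnat3, chr9:98296320-98296619, plus strand: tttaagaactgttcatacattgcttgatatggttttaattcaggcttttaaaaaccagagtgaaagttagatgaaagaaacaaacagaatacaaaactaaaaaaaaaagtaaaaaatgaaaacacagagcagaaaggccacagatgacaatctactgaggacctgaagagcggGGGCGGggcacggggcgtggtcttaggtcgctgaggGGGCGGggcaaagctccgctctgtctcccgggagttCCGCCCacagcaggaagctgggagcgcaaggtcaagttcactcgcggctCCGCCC
Nampt, chr12:32820085-32820384, plus strand: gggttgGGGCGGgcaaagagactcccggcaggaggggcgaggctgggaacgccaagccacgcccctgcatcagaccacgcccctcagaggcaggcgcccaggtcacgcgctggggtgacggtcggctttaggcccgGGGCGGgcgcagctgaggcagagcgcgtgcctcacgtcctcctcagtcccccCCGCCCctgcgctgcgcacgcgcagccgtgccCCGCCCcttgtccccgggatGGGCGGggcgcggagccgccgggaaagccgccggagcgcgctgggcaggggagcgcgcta
Nmnat1, chr4:149485161-149485460, minus strand: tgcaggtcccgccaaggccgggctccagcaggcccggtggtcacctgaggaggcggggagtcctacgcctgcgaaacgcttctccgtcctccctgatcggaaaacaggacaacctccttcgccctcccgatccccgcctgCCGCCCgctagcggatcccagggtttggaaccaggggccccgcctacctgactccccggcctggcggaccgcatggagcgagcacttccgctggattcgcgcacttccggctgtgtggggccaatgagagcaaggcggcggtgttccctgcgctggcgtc
The Nmnat3 and Nampt windows lie inside the gene bodies of the GENCODE annotation, downstream of the starts given there. Another Nmnat1 window, chr4:149485123-149485422, overlaps the one shown and is left out. GC boxes were found 4 times in the Nmnat3 window, 5 times in that of Nampt and 1 time in that of Nmnat1, and at least 1 occurs in 35.7% of all 32851 windows of the same length. The Nmnat3 window also held AAGGTCA, a nuclear receptor half-site present in 4.72% of windows. It held 13 CpG dinucleotides, against a median of 7 and quartiles of 3 and 20 over all windows. The Nampt window held 36 and the Nmnat1 window 28. Neither the Nmnat3, the Nampt nor the Nmnat1 window held GAANNTTC, a pair of heat shock element units that 7.86% of windows hold, or the E-box CACGTG (7.15%). CCAAT, in 37.4% of windows, was found in the Nmnat1 window, and TGACG, a cyclic AMP response half-site in 20.8% of windows, in the Nampt window. All motifs were searched on both strands, no match overlapped another, and a match is a string of letters, not a measured binding site.

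Nmnat3 was lower in the knockout than in wild type both with and without heat. In the heated knockout the 5 testes had 24.79, 28.45, 25.52, 30.72 and 25.56 TPM, and the 4 heated wild-type testes had 35.23, 34.85, 39.69 and 39.67 TPM. Each heated knockout value lay below every heated wild-type value. The means were 27.0 ± 2.50 TPM (SD, n = 5) in heated knockout and 37.4 ± 2.68 TPM (n = 4) in heated wild type, a ratio of 0.723. The selection used the unheated testes and not these 9, though earlier results of these data were known. On the log2(TPM + 1) scale, which is used for all log2 differences here, Nmnat3 fell by 0.46 ± 0.08 (moderated standard error; 95% interval -0.62 to -0.29; limma adjusted p = 2.59e-05 over 18977 genes). A 2-sided exact permutation test over the 9 testes gave p = 0.00794, the smallest value these group sizes allow (0.0119 after adjustment over 6 such tests). The log2 difference was -0.34 with median-of-ratios scaling and -0.34 with quantile normalization (limma adjusted p = 0.00162 and 0.00112), the smallest sizes among 30 alternatives, over which adjusted p ran between 8.18e-06 and 0.00162. After heat 49.0% of all genes tested were called lower in the knockout (limma adjusted p under 0.05), so a lower value there is common.

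**Figure D1:**
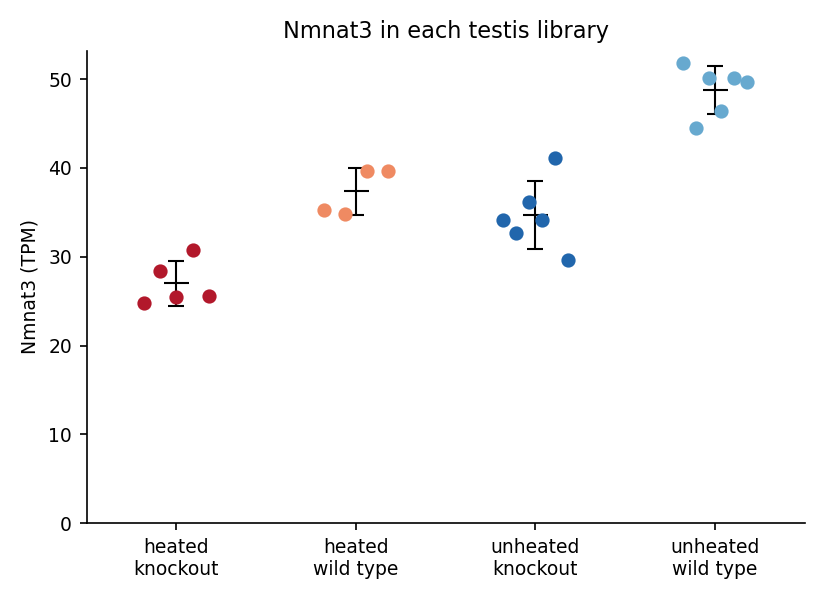
Nmnat3 TPM (vertical axis, from 0) in each of the 21 testes by group, with points for libraries and black bars for mean ± SD. Heated knockout lies at 24.79 to 30.72 TPM, below heated wild type at 34.85 to 39.69 TPM, and unheated knockout lies at 29.69 to 41.11 TPM, below unheated wild type at 44.53 to 51.83 TPM.

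Without heat, the values that chose the gene were a lowest, median and highest of 29.69, 34.15 and 41.11 TPM in 6 knockout testes and of 44.53, 49.92 and 51.83 TPM in 6 wild-type testes. The ranges did not overlap. The means were 34.7 ± 3.82 TPM in unheated knockout and 48.8 ± 2.74 TPM in unheated wild type (SD, n = 6 each), a ratio of 0.71 and a log2 difference of -0.49 ± 0.07. In this comparison 1.33% of all genes were called, 237 higher (1.25%) and 16 lower (0.0843%), and nothing is read from this for Nmnat3. The number of genes called, 253 in all, rested on single libraries, with 19 called without unheated wild-type replicate 3 and 492 without heated knockout replicate 4. Leaving out heated knockout replicate 4, or any unheated library other than wild-type replicate 4, moved it by over 1.5 times. The 6 other tested members had log2 differences of -0.09 for Nmnat1, 0.04 for Nadsyn1, 0.16 for Naprt, 0.17 for Nadk, 0.20 for Nmrk1 and 0.27 for Nampt. Nampt ran at 8.77 to 10.3 TPM in unheated knockout and 6.54 to 8.25 TPM in unheated wild type, ranges that did not overlap. How many of all genes had such ranges was not counted, so nothing is read from this.

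Nmnat3 was lower with heat in each genotype. In the knockout the heated mean was 0.779 times the unheated one (log2 difference -0.35 ± 0.07), with overlapping ranges, since 1 heated testis at 30.72 TPM stood above the lowest unheated testis at 29.69 TPM. In wild type it was 0.766 times the unheated one (-0.38 ± 0.08), with no overlap. These values share the unheated testes that chose the gene and are given without a test. The size depended on the scaling, at -0.18 with quantile normalization in the knockout and -0.61 with median-of-ratios scaling in wild type. The knockout heat effect minus the wild-type heat effect was 0.03 ± 0.11 (95% interval -0.19 to 0.25), and 0.18 with median-of-ratios scaling.

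Among the other NMNAT enzymes, Nmnat1, the nuclear enzyme (chromosome 4 at 149467572 to 149485202, minus strand), fell after heat in both genotypes and more in wild type. Heated knockout testes had 13.98, 13.22, 13.91, 10.89 and 13.87 TPM, and heated wild-type testes had 7.5, 5.4, 5.97 and 5.8 TPM. The unheated testes ran at 22.92, 23.96 and 24.96 TPM (lowest, median, highest) in knockout and at 24.42, 25.43 and 27.10 TPM in wild type. All heated values lay below all unheated values, and the heated genotypes did not overlap. The heat effect was -0.82 ± 0.07 log2 in the knockout and -1.90 ± 0.07 in wild type (limma adjusted p = 4.15e-10 and 4.15e-16). Heated knockout stood 2.14-fold above heated wild type (0.99 ± 0.08 log2, limma adjusted p = 3.05e-10), the opposite direction to Nmnat3. The heat effects of Nmnat1 differed by 1.07 ± 0.10 (knockout minus wild type, limma adjusted p = 1.04e-08).

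Nmnat2, on chromosome 1 at 152954993 to 153119261, was near the bottom of the measured range and did not reach the mean of 1 TPM set for the test across genes. It had 0.59, 1.40, 1.19, 0.90 and 0.91 TPM in heated knockout and 0.16, 0.12, 0.15 and 0.09 TPM in heated wild type. The heated genotypes did not overlap, and every heated wild-type value lay below the unheated wild-type range of 0.32 to 0.75 TPM. In unheated knockout it ran at 0.22 to 0.77 TPM, which overlapped heated knockout. By 2-sided exact permutation the log2 difference was 0.81 for knockout against wild type after heat (p = 0.00794, adjusted 0.0119), 0.39 for heat in the knockout (p = 0.0152, adjusted 0.0182) and -0.43 for heat in wild type (p = 0.00476, adjusted 0.0119). With no filter on the mean, limma gave adjusted p = 5.16e-06, 0.00349 and 0.00176 for the same comparisons, and the heat effects differed by 0.82 (knockout minus wild type, limma adjusted p = 0.000135). Values this low, above all those in heated wild type, can rest on very few reads.

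Taken as a family, the NMNAT transcripts differed in makeup more than in total after heat. Nmnat3 made up 62.8% to 72.3% of the summed NMNAT TPM in heated knockout and 82.1% to 87.1% in heated wild type. Its mean share was 65.5% ± 4.00 in heated knockout (SD, n = 5) and 85.5% ± 2.29 in heated wild type (n = 4; 2-sided exact permutation p = 0.00794, adjusted 0.0119). Every heated knockout testis was lower in Nmnat3 and higher in Nmnat1 and Nmnat2 than every heated wild-type testis. The Nmnat3 shares had to separate for that reason, so this p repeats those results and is no further support. Nmnat1 held 25.6% to 35.5% in heated knockout and 12.7% to 17.5% in heated wild type. The summed level was 41.2 ± 1.56 TPM in heated knockout and 43.7 ± 2.56 TPM in heated wild type, a difference that did not pass (exact permutation p = 0.143, also after adjustment). Without heat the sum was 59.2 ± 4.12 TPM in knockout and 74.9 ± 3.12 TPM in wild type, and the Nmnat3 share was 58.4% ± 2.44 and 65.1% ± 1.61 (SD, n = 6 each), given as description.

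**Figure D2:**
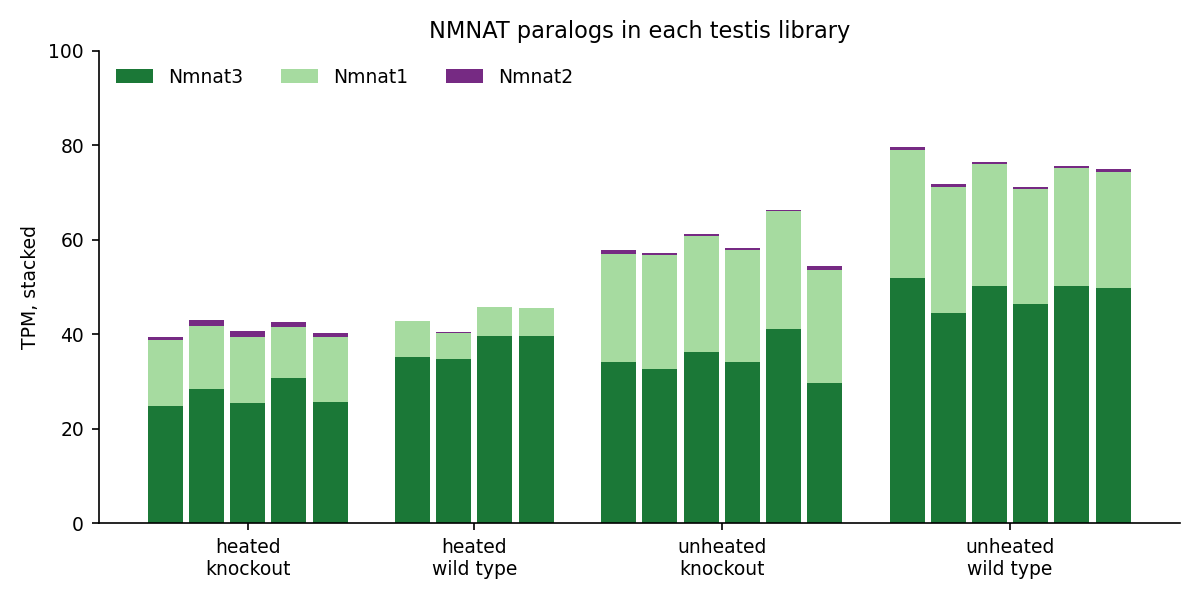
Stacked TPM of Nmnat3, Nmnat1 and Nmnat2 (vertical axis) in each testis, 1 bar per library. The bars are of similar height in heated knockout (39.36 to 43.07 TPM) and heated wild type (40.37 to 45.81 TPM), while the Nmnat3 part is smaller in heated knockout.

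The enzymes that bring precursors into the pathway moved in different directions. Nampt, the rate-limiting enzyme of salvage from nicotinamide (chromosome 12 at 32819545 to 32853349, plus strand), rose after heat in both genotypes. It had 22.59, 24.61, 17.48, 22.91 and 24.30 TPM in heated knockout and 42.27, 43.96, 43.82 and 38.88 TPM in heated wild type. The unheated values were 8.77, 9.22 and 10.3 TPM (lowest, median, highest) in knockout and 6.54, 7.95 and 8.25 TPM in wild type. No range overlapped another. Nampt rose 2.38-fold in the knockout (1.16 ± 0.08 log2, limma adjusted p = 1.64e-11) and 5.52-fold in wild type (2.32 ± 0.08, 1.63e-16). After heat the knockout stood at 0.530 times wild type (-0.89 ± 0.09, limma adjusted p = 8.51e-09).

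Naprt, which uses nicotinic acid (chromosome 15 at 75890956 to 75894481, minus strand), also rose. Its values were 1.98, 2.45, 3.01, 3.13 and 1.69 TPM in heated knockout and 4.91, 5.36, 4.13 and 4.13 TPM in heated wild type. Unheated testes stood at 0.52, 1.06 and 1.31 TPM (lowest, median, highest) in knockout and at 0.34, 0.83 and 1.01 TPM in wild type. Heated and unheated ranges did not overlap in either genotype, nor did the heated genotypes. Naprt reached the mean of 1 TPM only through the heated testes, so a test after that filter would favour a rise. Fitted with no filter, its heat effects were 0.79 ± 0.13 log2 in the knockout and 1.67 ± 0.14 in wild type (limma adjusted p = 3.00e-05 and 1.23e-09). In the same fit with no filter it was lower in the knockout after heat by 0.72 ± 0.15 log2 (-0.72, limma adjusted p = 0.000288). Its annotated exons share 277 bases (11.8% of their length) with Eef1d on the same strand, a translation elongation factor gene at 896 ± 51.0 TPM in heated knockout and 526 ± 52.7 TPM in heated wild type, the reverse order of Naprt, and the sources used here do not say how shared reads were assigned.

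Nmrk1, the nicotinamide riboside kinase (chromosome 19 at 18631950 to 18652428, plus strand), fell after heat in the knockout. Heated knockout testes had 2.47, 2.43, 2.84, 3.18 and 3.86 TPM, and heated wild-type testes 3.81, 4.34, 4.72 and 3.69 TPM. Unheated testes had 4.41, 4.79 and 6.63 TPM (lowest, median, highest) in knockout and 3.8, 4.39 and 4.56 TPM in wild type. The heated knockout lay wholly below the unheated knockout, whereas the heated genotypes overlapped at 1 knockout testis (3.86 TPM). The heat effect was -0.63 ± 0.10 in the knockout (limma adjusted p = 5.11e-06) and -0.04 ± 0.10 in wild type (limma adjusted p = 0.700; 95% interval -0.26 to 0.18). With median-of-ratios scaling the wild-type value was -0.23 (limma adjusted p = 0.0330, within a range of 0.0330 to 1.00 over 29 alternatives). The heat effects differed by -0.58 ± 0.14 (limma adjusted p = 0.000921), and after heat the knockout was lower by 0.39 ± 0.11 (-0.39; limma adjusted p = 0.00274).

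Qprt, the last enzyme of the tryptophan route (chromosome 7 at 127107114 to 127122226, minus strand), was nearly undetected. It stood at 0.03 to 0.15 TPM in heated knockout, 0.08 to 0.15 TPM in heated wild type, 0.03 to 0.08 TPM in unheated knockout and 0 to 0.05 TPM in unheated wild type, below the filter. Levels this low in TPM can rest on very few reads, so no fold is given. In the fit with no filter, the Qprt heat effect was 0.04 log2 in the knockout and 0.13 in wild type (limma adjusted p = 0.173 and 0.000118). These differed by -0.09 (knockout minus wild type, limma adjusted p = 0.0395). After heat the genotypes differed by -0.06 (limma adjusted p = 0.0768). Nothing is read from values this near 0 TPM. Of the summed TPM of Nampt, Naprt, Nmrk1 and Qprt, Nampt held a mean of 80.1% ± 3.62 in heated knockout, 82.6% ± 0.631 in heated wild type, 60.7% ± 3.69 in unheated knockout and 59.97% ± 3.53 in unheated wild type. Nmrk1 held 10.6% ± 1.99, 8.09% ± 0.626, 32.7% ± 3.87 and 33.7% ± 3.22 in the same groups.

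**Figure D3:**
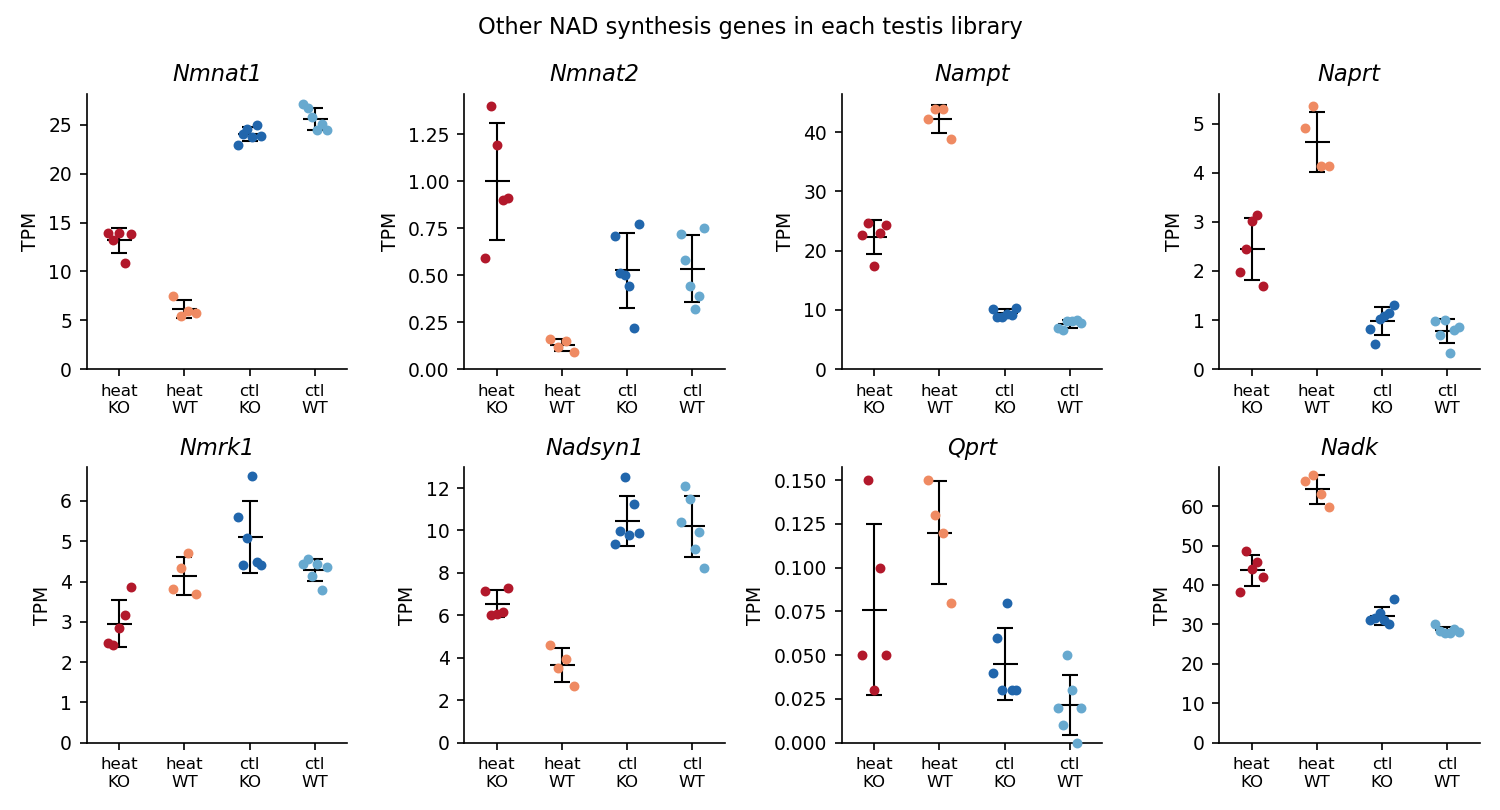
TPM (vertical axes, each from 0) of the 8 members other than Nmnat3 in each testis, with points for libraries and black bars for mean ± SD. The groups run as heated knockout, heated wild type, unheated knockout and unheated wild type (heat KO, heat WT, ctl KO, ctl WT). Nampt, Naprt and Nadk are highest in heated wild type, and Nmnat1 and Nadsyn1 are lowest there.

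At the end of the pathway, Nadsyn1, the glutamine-dependent NAD synthetase (chromosome 7 at 143795584 to 143822849, minus strand), fell after heat. It had 7.17, 6.02, 6.07, 6.15 and 7.30 TPM in heated knockout and 4.59, 3.5, 3.96 and 2.69 TPM in heated wild type. The unheated values were 9.34, 9.93 and 12.5 TPM (lowest, median, highest) in knockout and 8.22, 10.15 and 12.11 TPM in wild type. Heated ranges lay below unheated ranges and did not overlap each other. The heat effect was -0.60 ± 0.10 in the knockout and -1.26 ± 0.11 in wild type (limma adjusted p = 1.75e-05 and 3.81e-10). Heated knockout stood 1.78-fold above heated wild type (0.70 ± 0.11 log2, limma adjusted p = 1.04e-05).

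Nadk, the cytosolic NAD kinase (chromosome 4 at 155562378 to 155591001, plus strand), rose after heat. It had 38.24, 48.55, 44.01, 45.80 and 41.99 TPM in heated knockout and 66.31, 67.90, 63.14 and 59.70 TPM in heated wild type. Unheated testes had 30.08, 31.38 and 36.54 TPM (lowest, median, highest) in knockout and 27.82, 28.22 and 30.20 TPM in wild type. The 4 heated wild-type testes were the highest, and heated knockout lay between them and the unheated testes with no overlap. Nadk rose 1.36-fold in the knockout (0.43 ± 0.06 log2) and 2.25-fold in wild type (1.14 ± 0.06), with limma adjusted p = 9.28e-07 and 1.21e-13. After heat the knockout stood at 0.680 times wild type (-0.55 ± 0.07, limma adjusted p = 1.44e-07).

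Counted together, 7 of the 9 members passed the filter (a mean over all 21 libraries of 1 TPM or more), and Naprt, which passed only through the heated testes, is left out of these counts. Leaving out Nmnat3 as well, heat in the knockout was followed by a rise of 2 (Nampt and Nadk) and a fall of 3 (Nmnat1, Nadsyn1 and Nmrk1) of 5, where 41.3% of all genes were called higher and 41.5% lower (82.8% in all). In wild type Nampt and Nadk rose and Nmnat1 and Nadsyn1 fell, where 47.0% of all genes were called higher and 44.6% lower (91.6% in all). After heat the knockout was higher for 2 (Nmnat1 and Nadsyn1) and lower for 4 (Nmnat3, Nampt, Nmrk1 and Nadk) of 6, where 34.4% of genes were called higher and 49.0% lower (83.5% in all). The heat effects, taken as knockout minus wild type, differed for all 5 members counted without Nmnat3, with 2 higher (Nmnat1 and Nadsyn1) and 3 lower, where 33.2% of genes were called higher and 47.6% lower (80.7% in all). The counts are near these backgrounds and say nothing particular about NAD synthesis. The median log2 heat effect over the members counted was -0.60 in the knockout and -0.04 in wild type, beside 0.01 and 0.06 over all genes. The median genotype difference after heat was -0.42 over the members counted and -0.20 over all genes.

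**Figure D4:**
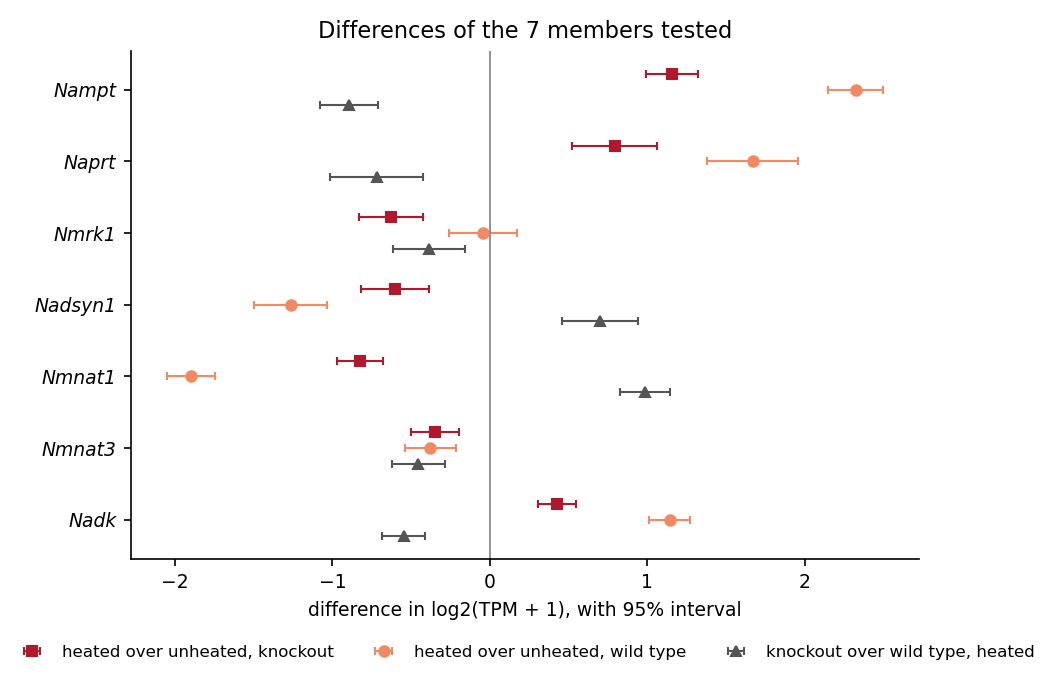
Differences in log2(TPM + 1) with 95% intervals (horizontal axis) for the 7 tested members, for heat in the knockout (squares), heat in wild type (circles) and knockout over wild type after heat (triangles). On this scale Nampt lies at 2.32 and Nmnat1 at -1.90 for heat in wild type, while the Nmnat3 values lie at -0.35, -0.38 and -0.46; its heat values share testes with the rule that chose it.

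The order of levels between genes, which TPM allows because it is scaled to length, changed with heat. In unheated wild type Nmnat3 was highest at 48.8 ± 2.74 TPM, followed by Nadk at 28.5 ± 0.887, Nmnat1 at 25.6 ± 1.13, Nadsyn1 at 10.2 ± 1.44, Nampt at 7.65 ± 0.706, Nmrk1 at 4.28 ± 0.276, Naprt at 0.780 ± 0.247, Nmnat2 at 0.533 ± 0.178 and Qprt at 0.0217 ± 0.0172 TPM (SD, n = 6). Neighbours overlapped for Nadsyn1 with Nampt and for Naprt with Nmnat2. In heated wild type Nadk led at 64.3 ± 3.63 TPM, followed by Nampt at 42.2 ± 2.36, Nmnat3 at 37.4 ± 2.68, Nmnat1 at 6.17 ± 0.920, Naprt at 4.63 ± 0.609, Nmrk1 at 4.14 ± 0.479 and Nadsyn1 at 3.69 ± 0.800 TPM (SD, n = 4). There Nampt overlapped Nmnat3, and Naprt, Nmrk1 and Nadsyn1 overlapped in turn. In heated knockout Nadk (43.7 ± 3.90 TPM) led Nmnat3 (27.0 ± 2.50), Nampt (22.4 ± 2.87), Nmnat1 (13.2 ± 1.31) and Nadsyn1 (6.54 ± 0.636 TPM; SD, n = 5). In unheated knockout Nmnat3 (34.7 ± 3.82 TPM) and Nadk (32.2 ± 2.30 TPM) overlapped (SD, n = 6).

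Around these enzymes, 29 of 40 listed genes of NAD synthesis, use and breakdown passed the filter. Of these, 3 passed only through the heated testes (Parp14, Cd38 and Enpp1) and 1 only through the unheated testes (Sarm1), and these 4 are left out of the counts. Of the other 25, 13 rose and 9 fell after heat in the knockout (41.3% and 41.5% of all genes), and 17 rose and 8 fell in wild type (47.0% and 44.6%). After heat the knockout was higher for 3 and lower for 19 of the 25 (34.4% and 49.0% of all genes), with a median log2 difference of -0.61 beside -0.20 over all genes. In the tryptophan route only Afmid, the kynurenine formamidase, passed the filter, at 6.98 ± 1.17 TPM in heated knockout (SD, n = 5) and 9.59 ± 1.18 TPM in heated wild type (n = 4), and it rose after heat in both genotypes (2.35-fold in the knockout and 3.46-fold in wild type, limma adjusted p = 1.83e-07 and 4.84e-10). Slc25a51, the mitochondrial NAD carrier, rose 2.21-fold in the knockout and 5.14-fold in wild type (limma adjusted p = 3.45e-09 and 1.36e-14). Nadk2, the mitochondrial NAD kinase, was at -0.04 ± 0.05 log2 in the knockout (limma adjusted p = 0.433) and rose in wild type (0.55 ± 0.05, limma adjusted p = 1.13e-09). Nnt, the transhydrogenase, stood on 2 entries of the table and was left out.

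Among 14 NAD consumers counted, 6 rose and 6 fell after heat in the knockout, and 8 rose and 6 fell in wild type, near the shares of all genes just given. Sirt3, a mitochondrial deacetylase, fell in both, at 18.1 ± 1.39 TPM in heated knockout and 17.5 ± 2.06 TPM in heated wild type, against 48.7 ± 3.03 TPM in unheated knockout and 50.8 ± 2.94 TPM in unheated wild type. Its heat effects were -1.38 ± 0.07 log2 in the knockout and -1.49 ± 0.07 in wild type (limma adjusted p = 1.05e-13 and 1.02e-14), and their difference of 0.10 ± 0.10 did not pass (limma adjusted p = 0.334). Sirt4, another mitochondrial sirtuin, fell by 1.14 ± 0.09 in the knockout and by 0.52 ± 0.10 in wild type (limma adjusted p = 2.46e-10 and 3.82e-05). The tankyrases, which are poly(ADP-ribose) polymerases, went opposite ways. Tnks was at 55.6 ± 8.75 TPM in heated knockout and 33.0 ± 2.32 TPM in heated wild type, and fell after heat in both genotypes. Its heat effect was -0.66 ± 0.08 log2 in the knockout and -1.40 ± 0.08 in wild type (limma adjusted p = 9.49e-08 and 4.15e-13). Tnks2 was at 44.6 ± 10.7 TPM in heated knockout and 106.1 ± 8.52 TPM in heated wild type, and rose 2.42-fold in the knockout and 6.77-fold in wild type (limma adjusted p = 8.07e-09 and 1.29e-14). In the group of clearance and breakdown, 5 of 8 counted rose and 3 fell in the knockout, and 6 rose and 2 fell in wild type, beside the same shares of all genes. Nt5e, a surface 5′-nucleotidase, rose 4.58-fold in the knockout and 16.2-fold in wild type (limma adjusted p = 1.91e-12 and 6.18e-17). Nnmt, which methylates nicotinamide, fell after heat and stood at 9.41 ± 0.850 TPM in heated knockout and 5.87 ± 0.585 TPM in heated wild type (0.60 ± 0.08 log2, limma adjusted p = 6.24e-07).

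Protein-coding genes around Nmnat3 on chromosome 9 were set beside it, with distances taken between gene starts. Clstn2 did not reach the filter. After heat Copb2, a coatomer subunit gene 276.3 kb downstream, was at 73.3 ± 4.76 TPM in heated knockout and 111.1 ± 6.41 TPM in heated wild type (-0.59 ± 0.06 log2, limma adjusted p = 1.58e-08). Slc25a36, a mitochondrial nucleotide carrier gene 1176.3 kb upstream, was also lower (-1.14 ± 0.12, limma adjusted p = 2.50e-08). Trim42, a tripartite motif gene 917.5 kb upstream, went the other way, at 31.86 to 45.33 TPM in heated knockout and 1.05 to 5.38 TPM in heated wild type (3.70 ± 0.21, limma adjusted p = 4.35e-12). Without heat, where the comparison is a description, these 3 genes had log2 differences of 0.17 (Copb2), 0.14 (Slc25a36) and -0.05 (Trim42), beside -0.49 for Nmnat3, and each of the 3 had overlapping ranges between genotypes. Copb2 and Slc25a36 were 2.45-fold and 4.47-fold higher in heated than in unheated wild type, where Nmnat3 was at 0.766 times.

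**Figure D5:**
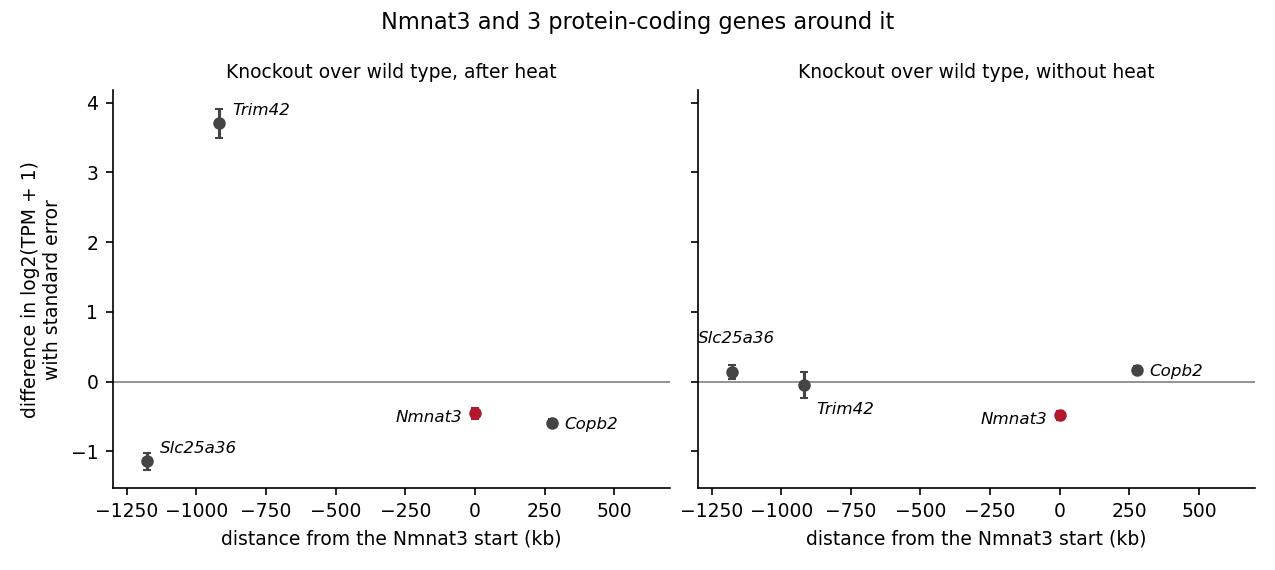
Knockout over wild type difference in log2(TPM + 1), with standard error (vertical axis), for Nmnat3 (red) and 3 protein-coding genes around it by distance from the Nmnat3 start in kb (horizontal axis), after heat (left) and without heat (right). Without heat Nmnat3 lies at -0.49 and the others between -0.05 and 0.17, while after heat Nmnat3 lies at -0.46 and the others between -1.14 and 3.70.

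The genes whose log2(TPM + 1) followed Nmnat3 most closely over the 21 libraries were Morrbid, a long noncoding RNA (Pearson r = 0.855), St6galnac3, a sialyltransferase (0.840), Hey1, a Notch-responsive repressor (0.827), Msh3, a mismatch repair protein (0.823), and Optn, an autophagy receptor (0.813). The libraries share 4 group levels, and the r of deviations from group means was 0.239, 0.113, 0.119, 0.0884 and 0.245 for the same genes. Like Nmnat3, all 5 had their lowest mean in heated knockout and their highest in unheated wild type. They were chosen by correlation over these same libraries, so this likeness largely follows from the choice. Optn, for example, averaged 66.2 TPM in heated knockout, 79.1 TPM in heated wild type, 90.1 TPM in unheated knockout and 95.8 TPM in unheated wild type. Morrbid was near the filter, at 0.880, 1.41, 1.26 and 1.88 TPM in these groups. Among the tested members r with Nmnat3 ran between -0.47 for Nampt and 0.44 for Nmrk1, with 0.34 for Nmnat1. For these members the r of deviations from group means was 0.02 (Nampt), -0.01 (Nmrk1) and -0.27 (Nmnat1). Their r over the libraries thus reflects the group levels, and for Nmnat1 the sign turned.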

How the data were processed

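RNA was measured in 21 whole testes, taken as separate biological replicates per the labels, with 1 library each. The deposited values are TPM computed by the authors, per the file name and column sums. STAR and mm10 are named in the submitters' processing notes, and the sources used here do not give the annotation, counting tool or versions. TPM keeps no depth, so precision was judged from replicates, whose within-group correlation was 0.971 to 0.994.

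Values were transformed to log2(TPM + 1). The 18977 genes whose mean reached 1 TPM entered 1 limma model of the 4 group means (limma 3.58.1, R 4.3.3), with a mean-variance trend and Benjamini-Hochberg adjustment over all genes tested, and were called at an adjusted p under 0.05. The same fit was also run on simulated data in which few genes changed. Most genes were called after heat here, so that run does not cover this setting. Genes that reached the filter through the heated or the unheated testes alone were left out of counts over lists, a choice made after their values were seen. Errors are SD for TPM and moderated standard errors for log2 differences, and folds are ratios of mean TPM. Exact permutation tests used the absolute difference of means. Coordinates are from GENCODE M21 (mm10) and promoter windows from RefSeq (GRCm38.p6), which held a window for 8 of the 9 members. Alternatives were pseudocounts of 0.1 and 0.5 TPM, other filters (none, 5 TPM), scalings, samples, priors, each library left out and a replicate block.

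The members, the gene lists and the alternatives were chosen with earlier results of these data known. Genes outside the members were named by a rule, namely the 2 largest called rises and falls per comparison in the pathway lists, the 3 protein-coding neighbours on each side (some of which are not reported here) and the 5 genes most correlated with Nmnat3. Afmid, Slc25a51, Nadk2 and Eef1d were chosen after their values were seen.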

Additional observations from a re-analysis of the deposited data

Results flagged for a closer look

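Over the 9 members and 4 groups, 36 sets of libraries were checked for a value far from the rest, of which chance flags about 1 in 20, and 2 stood out. Heated knockout replicate 4 had 10.89 TPM of Nmnat1, against 13.22 to 13.98 TPM in the other 4. Heated knockout replicate 3 had 17.48 TPM of Nampt, against 22.59 to 24.61 TPM in the other 4. Without either library the heat and genotype calls of the member concerned were kept.

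The heat effect differed between the genotypes for 6 members (knockout minus wild type, log2, limma adjusted p under 0.05), namely Nmnat1 by 1.07, Nampt by -1.17, Naprt by -0.88, Nadsyn1 by 0.66, Nmrk1 by -0.58 and Nadk by -0.72. For Nmnat1, Nampt, Naprt, Nadsyn1 and Nadk the knockout effect had the direction of the wild-type effect and a smaller size, and a difference of the heat effects, in either direction, was called for 80.7% of all genes. Naprt passed the filter only through the heated testes, and with no filter its difference was also -0.88 (limma adjusted p = 0.000736).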

How the results depend on the processing

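The 4 counts of called members stayed within 1.5 times of those reported under every alternative run: 4 to 6 for heat in the knockout (5 reported), 4 to 6 for heat in wild type (4), 5 to 7 for knockout against wild type after heat (6) and 4 to 7 for the difference of the heat effects (5). The ends of these ranges come from the filter of 5 TPM, which tests fewer members, and from no filter, which adds Nmnat2 and Qprt. With single libraries left out, Nmnat3 after heat ran between -0.50 and -0.43 and without heat between -0.54 and -0.44. Among values given without a test, those that moved by more than the spread between replicates were Nmnat3 for heat in the knockout (-0.18 with quantile normalization), heat in wild type (-0.61 with median-of-ratios scaling) and their difference (0.18 with median-of-ratios scaling), and Mageb4 without heat (-3.73 and -2.07 with pseudocounts of 0.1 and 0.5 TPM, -1.42 with 1). Of tested values, Nmrk1 for heat in wild type passed the threshold with median-of-ratios scaling (-0.23). Low genes grew with a pseudocount of 0.1 TPM and kept their side of the threshold: Nmnat2 to 0.83 for heat in the knockout, -1.42 for heat in wild type and 2.22 between genotypes after heat, and Naprt to 1.25 and 2.48 for heat in the knockout and in wild type. Over all genes the unheated genotype comparison called 253, against 70 with quantile normalization, 80 with no filter, 138 with median-of-ratios scaling, 454 with a pseudocount of 0.1 TPM and 1312 with only the unheated groups fitted. A smaller pseudocount enlarges the log2 difference of a gene near 0 by construction; for the scalings the cause was not tested. Same-numbered libraries were not paired, since the correlation of their deviations ran between -0.23 and 0.31 and passed 0.1 in 4 of 19 pairs. With a replicate block Nmnat3 stood at -0.47 after heat (limma adjusted p = 8.20e-05) and -0.49 without heat, and the counts were 5, 4, 6 and 5 in the order above. Unknown depth limits Qprt and Nmnat2 most.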
